A study of Mus musculus with 11 samples.

Results

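The genes examined are 10 that are switched on in fetal liver or in liver tumors, *Afp*, *H19*, *Gpc3*, *Golm1*, *Tspan8*, *Ly6d*, *Scd2*, *Cbr3*, *Tff3* and *Mcm10*, followed across 11 mouse livers. They were selected on the difference between the groups in these same livers, so their fold changes are given as a description, with no test. The table holds 7 of the 10 among its 13669 genes, and *Gpc3*, *Ly6d* and *Cbr3* were not analysed here. All animals were wild-type (WT) by the labels and, by the study's methods, male C57BL/6J mice on regular chow, and all received a recombinant adeno-associated virus of serotype 8, in which the liver-specific LP1 promoter drove the insert. In the 6 AAV-TuD animals the insert was a TuD, a decoy RNA that binds *miR-379* and *miR-541*, and in the 5 AAV-NC animals it was a negative control sequence. The study reports that this decoy also lowered the host transcripts *lncMGC* and *Mirg* and other miRNAs of the same cluster. The age of each animal and the time after the virus are not given with the samples. Libraries were made from 500 ng of whole-liver RNA with the QuantSeq 3′ mRNA-Seq V2 kit, which reads the 3′ end of polyadenylated transcripts. In RNA from whole liver, fewer cells of a type and less RNA per cell cannot be told apart.

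Oncofetal genes are active in the fetal liver, are silenced after birth, and are often active again in liver tumors and in injured liver. Alpha-fetoprotein (*Afp*) and the imprinted RNA *H19* are the classical pair in the mouse, and their decline after birth depends in part on the repressors *Zhx2* and *Zbtb20*. Other genes of the set are known from tumors as surface or secreted proteins (*Golm1*, *Tspan8*, *Tff3*), as a lipid enzyme (*Scd2*) or as part of the DNA replication machinery (*Mcm10*).

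The sequences of *miR-379* and *miR-541* are shown because the decoy binds them, and those of *miR-675* because *H19* hosts it. They are printed with the seed (bases 2 to 8) in capitals, from RefSeq on GRCm38.p6.
miR-379-5p: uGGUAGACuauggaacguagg
miR-541-5p: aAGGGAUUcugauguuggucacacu
miR-675-5p: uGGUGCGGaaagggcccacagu
miR-675-3p: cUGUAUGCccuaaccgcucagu
The 4 seeds differ from each other. The mature *miR-379* and *miR-541* strands lie on chromosome 12 at chr12:109709065-109709085 and chr12:109742422-109742446, plus strand. The hairpin of *miR-675* lies inside *H19* on chromosome 7 (chr7:142577064-142577147, minus strand), and the kit used here does not measure mature miRNAs. A match to the *miR-379-5p* or *miR-541-5p* seed was not found in the longest 3′ UTR of *Afp*, *Golm1*, *Scd2*, *Tspan8*, *Mcm10* or *Tff3*, or in the *H19* transcript. Seeds of the other miRNAs of their cluster, which the study also reports as lowered, were not searched. For 3′ UTRs of a length like that of *Golm1* (2666 bases, 1902 3′ UTRs), 8.73% held a *miR-379-5p* match and 14.5% a *miR-541-5p* match. For *Afp*, whose 3′ UTR has 201 bases, the share was 1.18% for each miRNA, so that short 3′ UTRs rarely hold a match.

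The promoters of *Afp* and *Golm1* are shown because *Afp* is the classical oncofetal gene of the set and *Golm1* is the gene whose groups stood apart with the least spread. Each is given 5′ to 3′ from 250 bases before to 50 after the RefSeq start, with matches to 3 motifs in capitals, searched on both strands. The HNF1 motif was searched as GTTAAT and with its last base changed to C. The TATA box was searched as TATAAA. The CCAAT box was searched by the letters of its name, and a match on the reverse strand shows as the complement.
Afp, chr5:90490464-90490763, plus strand: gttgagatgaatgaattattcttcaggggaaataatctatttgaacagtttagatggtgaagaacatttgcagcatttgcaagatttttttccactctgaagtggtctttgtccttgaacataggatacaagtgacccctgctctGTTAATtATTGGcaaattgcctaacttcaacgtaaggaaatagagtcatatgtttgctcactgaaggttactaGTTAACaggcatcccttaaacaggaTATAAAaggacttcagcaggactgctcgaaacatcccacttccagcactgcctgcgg
Golm1, chr13:59675735-59676034, minus strand: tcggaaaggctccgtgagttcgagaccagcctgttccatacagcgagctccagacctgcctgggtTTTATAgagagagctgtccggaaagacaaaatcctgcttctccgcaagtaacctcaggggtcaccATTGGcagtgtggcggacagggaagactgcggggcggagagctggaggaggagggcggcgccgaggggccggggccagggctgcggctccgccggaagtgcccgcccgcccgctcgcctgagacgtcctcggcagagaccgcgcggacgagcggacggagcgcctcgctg
The *Afp* window held the HNF1 motif at 105 and 32 bases before the RefSeq start, a CCAAT box on the reverse strand at 98 and a TATA box at 7. Counted from the GENCODE start of *Afp*, which lies downstream, the nearer HNF1 motif was at 55 bases and the TATA box at 30. The *Golm1* window held a TATA box at 185 and a CCAAT box at 120 bases before the RefSeq start, both on the reverse strand, and no HNF1 motif. In all promoters of this length, 9.85% held the HNF1 motif, 13.6% the TATA box and 37.4% the CCAAT box. Of the 10 genes, 6 had a promoter entry, and of the other 4 entries (*Gpc3*, *Cbr3*, *Tspan8*, *Mcm10*) the HNF1 motif was found in *Mcm10* alone, at 198 bases before the start.

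Library totals ran from 8148531 to 12043959 counted reads. The genes of the major urinary proteins (*Mup*) held 8.09% to 38.6% of each total, so levels are given as counts per 1000000 reads (CPM) of the library size after TMM scaling, whose factors were 0.667 to 1.24. In the fit across all 13334 tested genes, 7.24% were called higher and 4.33% lower with AAV-TuD at an adjusted p under 0.05 (edgeR quasi-likelihood test, Benjamini-Hochberg adjustment). The groups did not overlap in 4.11% of tested genes that were higher and 3.28% that were lower. Of the 7 measured genes, 6 passed the filter, over 10 reads in 5 or more livers, and entered the fit, whereas *Tspan8* did not and its fold change comes from the fit of all 13669 genes. *Golm1* had more than 10 reads in no AAV-NC liver and in 6 AAV-TuD livers, and *H19* in none and 5, so that both passed the filter through the AAV-TuD group alone. Every gene of the table had at least 10 reads in at least 5 livers. *Tspan8*, with at most 3 reads in any AAV-NC liver, met this through the AAV-TuD livers alone. After TMM scaling, *Golm1*, *H19* and *Tspan8* were higher in every AAV-TuD liver than in every AAV-NC liver and *Mcm10* was lower. The groups overlapped for *Afp*, *Scd2* and *Tff3*. Since these genes were picked for the difference, nothing is read from their number against the 4.11% and 3.28% of all genes.

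**Figure D1:**
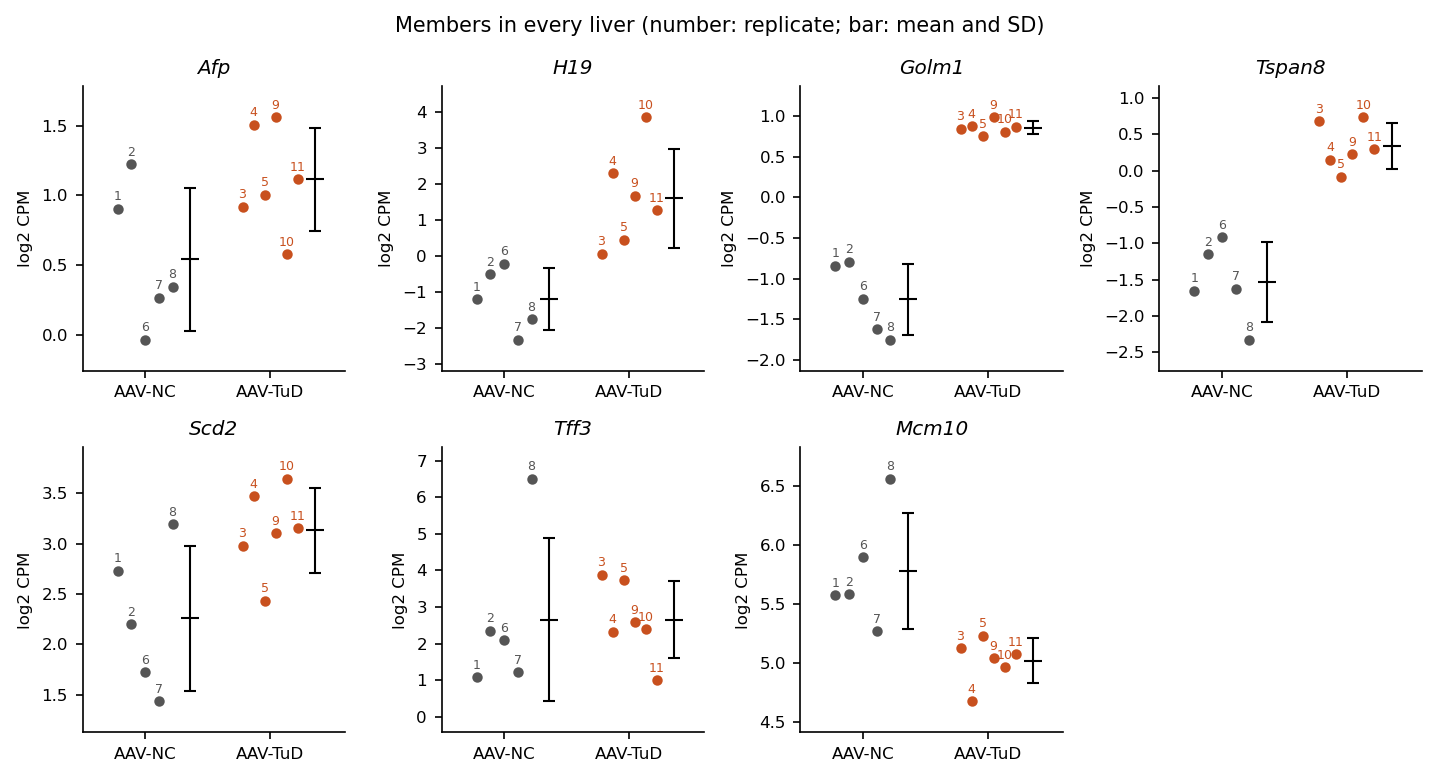
Level of each of the 7 measured genes in every liver on the log2 CPM scale (prior count 2), with a separate vertical scale per gene, AAV-NC in grey and AAV-TuD in orange; numbers are replicate numbers and the bar gives the mean and SD. *Golm1* forms a tight row between 1.49 and 1.78 CPM in AAV-TuD, *H19* spreads from 0.845 to 14.3 CPM, and *Tff3* and *Mcm10* are highest in liver AAV-NC 8.

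Alpha-fetoprotein is the main plasma protein of the fetus and the standard serum marker of liver cancer. *Afp* (ENSMUSG00000054932, chr5:90490737-90508907, plus strand) gave few reads in every liver. The 5 AAV-NC livers 1, 2, 6, 7 and 8 had 14, 17, 7, 8 and 11 reads, and the 6 AAV-TuD livers 3, 4, 5, 9, 10 and 11 had 18, 29, 17, 34, 15 and 23. Livers AAV-NC 1 and 2 lay within the AAV-TuD range, and 2 of the 6 AAV-TuD livers were above every AAV-NC liver. The mean was 1.33 ± 0.560 CPM (SD, n = 5) with AAV-NC and 2.03 ± 0.567 CPM (SD, n = 6) with AAV-TuD, a fitted log2 fold change of 0.62 (SE 0.29). With each liver left out in turn this value was between 0.48 and 0.85. An antisense gene, *Gm43449*, shares 9820 bases of the *Afp* locus and had 1.10 ± 0.528 CPM and 0.885 ± 0.299 CPM (SD, n = 5 and 6), with a log2 fold change of -0.26 (adjusted p = 0.716). Whether counting used the strand is not stated in the sources used here, so reads of this pair could not be told apart without it.

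*H19* is a maternally expressed long noncoding RNA, abundant in fetal liver and nearly silent in the adult. The gene (ENSMUSG00000000031, chr7:142575529-142578143, minus strand) had 2, 4, 6, 0 and 1 reads in AAV-NC livers 1, 2, 6, 7 and 8. Where it had 0 reads, in AAV-NC 7, a floor of 3 counts allows a level of up to 0.376 CPM. The AAV-TuD livers 3, 4, 5, 9, 10 and 11 had 9, 52, 11, 37, 166 and 26 reads. On the CPM scale this is 0.845 to 14.3, with a median of 2.61. Even the lowest AAV-TuD liver was above the highest AAV-NC liver (0.664 CPM), and the highest and lowest AAV-TuD livers differed 16.9-fold. The fitted log2 fold change was 3.84 (SE 0.86), and it was 2.97 without AAV-TuD 10, the liver with most reads, where the group mean fell from 4.38 to 2.39 ± 1.56 CPM (SD, n = 5). The spread in AAV-TuD, an SD of 1.37 on the log2 CPM scale, was above that of 99.8% of 2659 genes within 1.5-fold of its level. *H19* was therefore the most uneven of the genes that were higher in every AAV-TuD liver.

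Golgi membrane protein 1 (GP73), encoded by *Golm1*, is scarce in normal hepatocytes and is a serum marker of liver disease and liver cancer. The gene (ENSMUSG00000021556, chr13:59634626-59675811, minus strand) had 3, 3, 2, 1 and 1 reads in AAV-NC livers 1, 2, 6, 7 and 8. In AAV-TuD livers 3, 4, 5, 9, 10 and 11 it had 17, 18, 14, 22, 18 and 19 reads. The groups were far apart, with 0.236 ± 0.129 CPM (SD, n = 5) against 1.61 ± 0.0990 CPM (SD, n = 6), a fitted log2 fold change of 2.75 (SE 0.32) that stayed between 2.53 and 2.96 with each liver left out. In all, the AAV-NC livers gave 10 reads and the AAV-TuD livers 108. Among the AAV-TuD livers *Golm1* varied by a factor of 1.2, with a coefficient of variation of 6.13%, whereas counting alone would give 23.6% at this number of reads. Of 2359 genes within 1.5-fold of that level, 0.0424% had a smaller SD on the log2 CPM scale. *Golm1* was selected on the difference between the groups in these same livers, so nothing is read from this small spread. In AAV-NC the coefficient of variation was 54.7%, at 1 to 3 reads per liver. The last 1297 bases of the *Golm1* transcript overlap the gene *Naa35*, which runs on the opposite strand. That stretch holds the 3′ end, which the kit reads. Since the strand setting of counting is not stated in the sources used here, reads of this pair could not be told apart without it. *Naa35* had 15.5 ± 1.48 CPM with AAV-NC and 15.5 ± 1.56 CPM with AAV-TuD (SD, n = 5 and 6), a log2 fold change of -0.00.

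*Tspan8* encodes a tetraspanin of epithelial surfaces and exosomes that is raised in several carcinomas. The gene (ENSMUSG00000034127, chr10:115816832-115849893, plus strand) had 1, 2, 3, 1 and 0 reads in AAV-NC livers 1, 2, 6, 7 and 8, and the 0 in AAV-NC 8 allows up to 0.292 CPM. AAV-TuD livers 3, 4, 5, 9, 10 and 11 had 15, 10, 7, 12, 17 and 12 reads. All 6 were above the highest AAV-NC liver, 0.744 to 1.47 CPM against at most 0.332 CPM. The mean was 0.166 ± 0.129 CPM (SD, n = 5) with AAV-NC and 1.09 ± 0.287 CPM (SD, n = 6) with AAV-TuD, with a fitted log2 fold change of 2.67 (SE 0.45) and a range of 2.31 to 3.10 with each liver left out. The AAV-NC livers gave 7 reads in all and the AAV-TuD livers 73. At these levels a single AAV-NC liver rests on 0 to 3 reads.

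*Scd2* encodes the stearoyl-CoA desaturase of fetal liver and brain, which makes monounsaturated fatty acids, while *Scd1* is the adult liver enzyme. *Scd2* (ENSMUSG00000025203, chr19:44293674-44306864, plus strand) had 54, 35, 28, 20 and 92 reads in AAV-NC livers 1, 2, 6, 7 and 8. The 6 AAV-TuD livers 3, 4, 5, 9, 10 and 11 had 82, 120, 49, 104, 143 and 102 reads. AAV-NC 1 and 8 lay inside the AAV-TuD range, and 2 of the 6 AAV-TuD livers, 4 and 10, were above every AAV-NC liver. Means were 5.08 ± 2.64 CPM (SD, n = 5) and 8.89 ± 2.5 CPM (SD, n = 6), with a fitted log2 fold change of 0.79 (SE 0.28), which was between 0.62 and 1.12 with each liver left out, highest without AAV-NC 8. The transcripts of *Scd1* and *Scd3* are 88.0% and 89.5% identical to that of *Scd2* over 1195 and 1046 bases in its first part, up to base 1860 of 5455, away from the 3′ end that the kit reads. *Scd1* had 3410 ± 1295 CPM and 3094 ± 578 CPM (SD, n = 5 and 6), a log2 fold change of -0.14 (adjusted p = 0.762, edgeR).

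*Tff3* encodes trefoil factor 3, a secreted peptide of mucous epithelia. In *Tff3* (ENSMUSG00000024029, chr17:31125306-31129646, minus strand) a single liver set the difference. AAV-NC livers 1, 2, 6, 7 and 8 had 16, 39, 37, 17 and 933 reads, and AAV-TuD livers 3, 4, 5, 9, 10 and 11 had 155, 53, 124, 72, 59 and 21. AAV-NC 8 stood at 90.8 CPM, and every other liver lay between 1.80 and 14.6 CPM. With all livers the means were 20.8 ± 39.2 CPM (SD, n = 5) and 7.54 ± 5.10 CPM (SD, n = 6), with a fitted log2 fold change of -1.52 (SE 0.84). Without AAV-NC 8 the AAV-NC mean was 3.26 ± 1.47 CPM (SD, n = 4) and the log2 fold change was 1.19 (SE 0.49), of the opposite sign. With all 11 livers the value was -0.01 by limma-voom with quality weights, and the group means on the log2 CPM scale differed by 0.01. The medians, 4.10 CPM with AAV-NC and 5.46 CPM with AAV-TuD, also stood the other way round from the means. No gene within 1.5-fold of its AAV-NC level had a larger SD there, of 2105 genes, and in AAV-TuD 99.7% of 2741 such genes had a smaller one. The AAV-NC level used for this was the mean of 20.8 CPM, which AAV-NC 8 set, so the AAV-NC rank restates that liver.

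**Figure D2:**
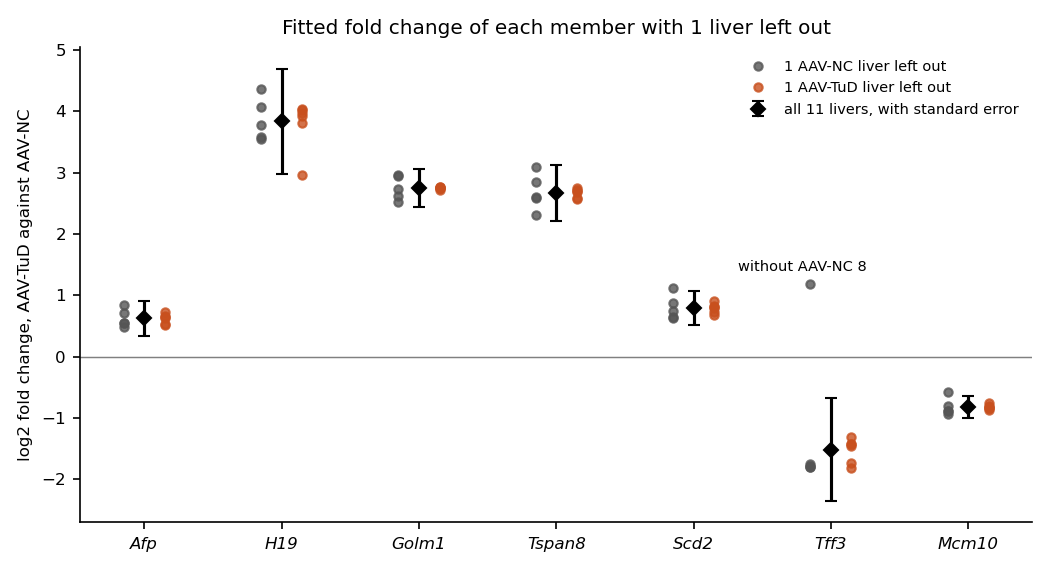
Fitted log2 fold change (AAV-TuD against AAV-NC) of each measured gene with all 11 livers (black diamond, bar: standard error) and with each AAV-NC liver (grey) or AAV-TuD liver (orange) left out. The values of *Tff3* run from -1.82 to 1.19, changing sign without AAV-NC 8, while *Golm1* stays between 2.53 and 2.96.

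*Mcm10* encodes a replication factor that joins the replicative helicase when DNA synthesis starts. *Mcm10* (ENSMUSG00000026669, chr2:4989714-5012791, minus strand) was the gene of the set that was lower in every AAV-TuD liver after TMM scaling. It had 397, 379, 536, 307 and 966 reads in AAV-NC livers 1, 2, 6, 7 and 8, and 370, 279, 352, 405, 360 and 393 in AAV-TuD livers 3, 4, 5, 9, 10 and 11. On the CPM scale the lowest AAV-NC liver, at 38.4, was just above the highest AAV-TuD liver, at 37.4. This gap rests on the scaling of AAV-NC 7, whose TMM factor was 0.667. Before TMM scaling, AAV-NC 7 had 307 of 11971245 counted reads, a smaller share than the 370 of 12043959 in AAV-TuD 3. The means were 57.4 ± 21.8 CPM (SD, n = 5) and 32.5 ± 4.06 CPM (SD, n = 6), a fitted log2 fold change of -0.83 (SE 0.18). Without AAV-NC 8, which had 94.0 CPM, the AAV-NC mean was 48.2 ± 8.57 CPM (SD, n = 4) and the log2 fold change was -0.57. *Mcm10* and *Tff3* thus shared their highest liver, and *Tmx4*, a gene noticed after its values were seen, was among the 3 genes most like each of them (r = 0.90 with *Mcm10* and 0.93 with *Tff3*, within-group deviations over 11 livers). These are the highest values among 8372 genes and include AAV-NC 8, the extreme liver of both, so no relation is read from them.

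The other genes of replication initiation moved the other way from *Mcm10* or were not called. Of 28 tested, 7 were higher (*Mcm5*, *Mcm6*, *Mcm7*, *Clspn*, *Mcm3*, *Cdt1* and *Rpa1*) and 0 lower, beside 7.24% and 4.33% of all genes, and the median log2 fold change was 0.45 against -0.00 over all genes. The number called higher was 4 without AAV-NC 6 and 11 when counts were scaled by library size without TMM factors. *Mcm5*, a subunit of the helicase that *Mcm10* binds, was at 0.866 ± 0.0931 CPM (SD, n = 5) in the controls and 2.80 ± 0.442 CPM (SD, n = 6) in the AAV-TuD livers. *Mcm5* and *Clspn* had more than 10 reads in no AAV-NC liver, so that they passed the filter through the AAV-TuD group alone, as *Golm1* and *H19* did. *Mcm6* had a log2 fold change of 1.67 (adjusted p = 0.00759), *Mcm7* 0.69 (0.0139) and *Mcm3* 1.13 (0.0198), all from edgeR. *Mcm3* was no longer called without AAV-NC 6 (adjusted p = 0.0534). *Mcm2* and *Mcm4* did not pass, at 1.24 (adjusted p = 0.0616) and 0.76 (adjusted p = 0.158), and both passed without AAV-TuD 3 (0.0348 and 0.0478), *Mcm2* also without AAV-TuD 11 (0.0491) and by DESeq2 (0.0228). Scaled by library size without TMM factors, both passed (adjusted p = 0.00797 and 0.0312). In AAV-TuD 3 *Mcm2*, *Mcm3*, *Mcm6* and *Mcm7* were within the AAV-NC range and *Mcm4* was below it, whereas *Mcm10* there was at 34.7 CPM, the highest of its group but for AAV-TuD 5. Of 10 proliferation markers tested, 8 were higher and 0 lower, with a summed level of 8.89 to 23.5 CPM in AAV-NC and 21.0 to 88.8 CPM in AAV-TuD. Of the 8 higher markers, 1 had more than 10 reads in no AAV-NC liver. AAV-NC 8, the liver with most *Mcm10*, had the highest sum of its group and AAV-TuD 3 the lowest of its own.

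**Figure D3:**
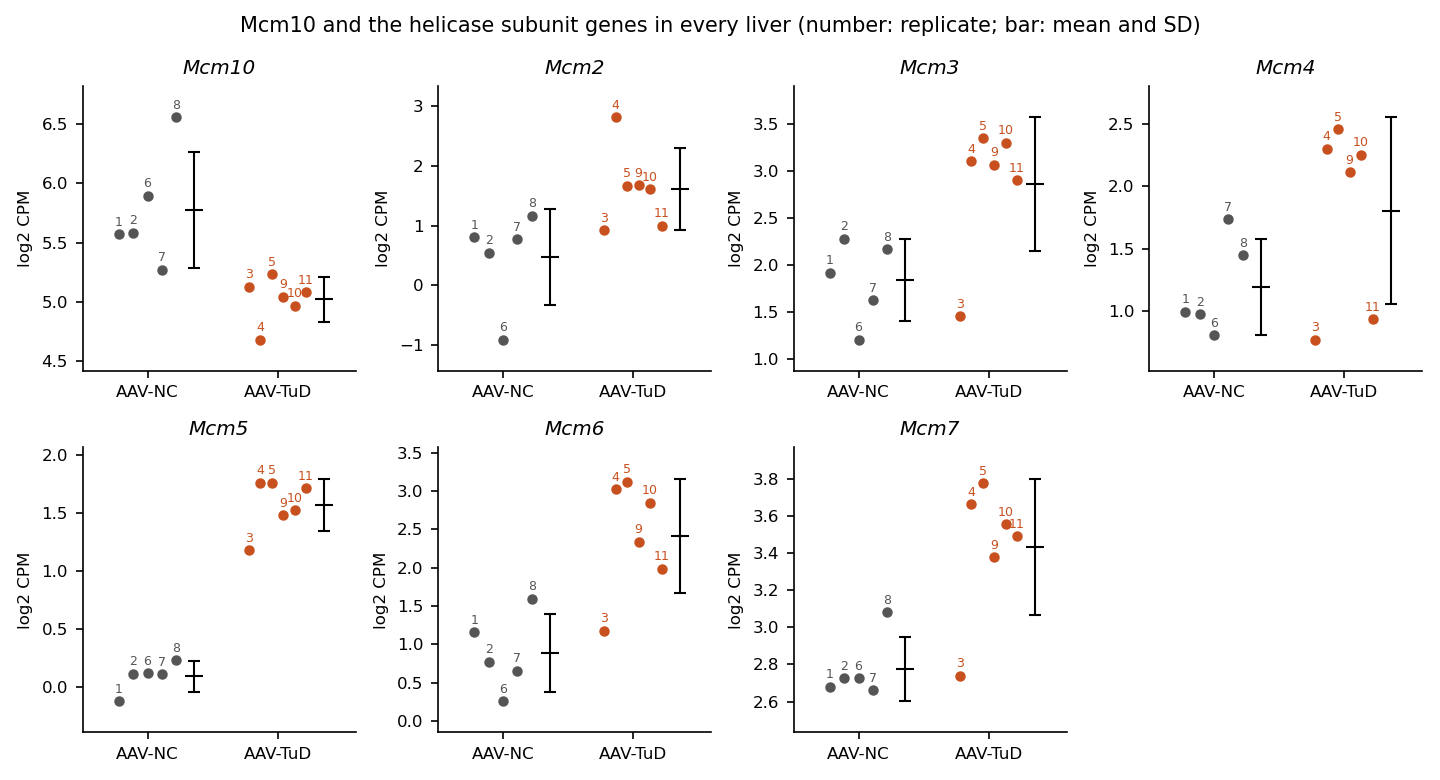
Level of *Mcm10* and of the 6 helicase subunit genes *Mcm2* to *Mcm7* in every liver on the log2 CPM scale, each gene with its own vertical scale, AAV-NC in grey and AAV-TuD in orange, with the mean and SD as a bar. After TMM scaling, *Mcm10* lies lower in all 6 AAV-TuD livers, and *Mcm5* lies higher in all 6.

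Among the regulators that keep *Afp* and *H19* low after birth, *Zhx2* was at 4.77 ± 0.706 CPM (SD, n = 5) and 4.72 ± 0.721 CPM (SD, n = 6), a log2 fold change of -0.02 (adjusted p = 0.967, edgeR). *Zbtb20*, a repressor of *Afp*, was at 512 ± 71.8 CPM and 673 ± 87.0 CPM (SD, n = 5 and 6). It was called higher, with a log2 fold change of 0.39 (adjusted p = 0.0299, edgeR), a call that was lost without any 1 of AAV-NC 1, 6 or 8 or AAV-TuD 4, 5 or 11 (adjusted p = 0.0527 to 0.0705). *Hnf4a*, an activator of hepatocyte genes including *Afp*, was lower by a log2 fold change of -0.38 (adjusted p = 0.0150, edgeR). Of 21 regulators tested, 2 were higher (*Dnmt3a* and *Zbtb20*) and 4 lower (*Zfp445*, *Hnf4a*, *Foxa3* and *Zhx3*), with a median of -0.14. The shares over all tested genes were 7.24% higher and 4.33% lower. *Zfp445*, an imprinting regulator, fell by 0.51 on the log2 scale (adjusted p = 0.00884), and *Zhx3*, a relative of *Zhx2*, fell by 0.32 (adjusted p = 0.0192, and 0.0517 without AAV-NC 6). The 4 lower regulators were not called when counts were scaled by library size without TMM factors (adjusted p = 0.300 to 0.778).

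*Afp* and *H19* were set beside their neighbours and relatives. *Alb*, the neighbour of *Afp* in the albumin gene cluster, was at 21096 ± 2304 CPM and 28044 ± 2727 CPM (SD, n = 5 and 6), a log2 fold change of 0.41 (adjusted p = 0.0805, edgeR). Over all 13334 tested genes, edgeR called 7.24% higher and 4.33% lower, and DESeq2 called 1060 higher and 751 lower. The share of all genes at an unadjusted p under 0.05 is not given here, so nothing is read from counts at that level. By edgeR 0 of the 5 tested genes of the albumin family and the *H19* neighbourhood were called, 2 were higher at an unadjusted p under 0.05, and DESeq2 called 1, *Alb*. *Alb* was also called by limma-voom with quality weights (adjusted p = 0.00652) and by edgeR without the *Mup* genes (adjusted p = 0.0194). Of 2 glypicans 0 were called by either tool, with 1 at an unadjusted p under 0.05, and of 2 stearoyl-CoA desaturases and 2 carbonyl reductases 0 were called by either tool or at an unadjusted p under 0.05. *Golm2*, the paralog of *Golm1*, had a log2 fold change of 0.52 (adjusted p = 0.0647), and it was called by DESeq2 and without AAV-NC 2. *Cbr1*, the paralog of *Cbr3*, had 0.03 (adjusted p = 0.934), and the glypicans *Gpc4* and *Gpc6* had -0.11 (adjusted p = 0.546) and 0.73 (adjusted p = 0.176). *Gpc6* passed without AAV-TuD 11 (adjusted p = 0.0366).

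Genes of the families of *Tspan8* and *Ly6d* were mixed. Of 16 tetraspanins tested, 3 were higher (*Cd63*, *Tspan3* and *Tspan7*) and 1 lower (*Tspan12*), beside 7.24% and 4.33% of all genes. *Tspan3* had more than 10 reads in no AAV-NC liver, so that it passed the filter through the AAV-TuD group alone. *Cd63*, a marker of late endosomes and exosomes, was at 6.67 ± 2.65 CPM and 25.3 ± 8.11 CPM (SD, n = 5 and 6), a log2 fold change of 1.92 (adjusted p = 8.08e-04, edgeR). *Tspan7* was not called without AAV-NC 1 (adjusted p = 0.0535) or AAV-NC 8 (0.0542). Of 5 Ly6 and uPAR domain genes tested, *Ly6e* and *Ly6a* were higher and 0 lower. *Ly6e*, the member of that family with most reads, was at 112 ± 9.71 CPM and 255 ± 53.9 CPM (SD, n = 5 and 6), a log2 fold change of 1.18 (adjusted p = 6.64e-05, edgeR).

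The wider lists of genes of the same kind held more calls in the higher direction. These lists were written with earlier results of these data known. Among all tested genes, 7.24% were called higher and 4.33% lower by edgeR. Of 33 tested liver tumor-associated genes other than the 10, 19 were higher and 0 lower by edgeR, with a median log2 fold change of 0.94, while DESeq2 called 20 higher and 2 lower. Of the 19 that edgeR called, 1 had more than 10 reads in no AAV-NC liver. Over all 13334 tested genes DESeq2 called 1060 higher and 751 lower. *Spp1* (osteopontin) had a log2 fold change of 2.20 (adjusted p = 1.18e-04), *S100a11* 1.62 (2.52e-04), and *Ccnd1* (cyclin D1) and *Prom1* 1.58 and 1.66 (0.00133 each), all from edgeR. The list of other fetal or oncofetal genes had 26 genes, of which 13 were measured and 9 tested. *Igf2*, *Lin28b*, *Sall4* and *Dlk1* were among those not analysed here, so the counts describe a part of the list. Of 9 tested fetal or oncofetal genes, 3 were higher and 1 lower, with a median of 0.17. *Cd24a* had a log2 fold change of 2.14 (adjusted p = 5.35e-05, edgeR), and it was above every AAV-NC liver in all 6 AAV-TuD livers. The other genes called higher, *Epcam* and *Sox4*, had more than 10 reads in no AAV-NC liver and so passed the filter through the AAV-TuD group alone. *Peg3*, an imprinted gene, fell by 0.61 on the log2 scale (adjusted p = 0.0283), and it was not called without AAV-NC 6 or 8 or AAV-TuD 4 or 10 (adjusted p = 0.0523 to 0.0829). Without AAV-NC 8 the median of this list was 0.52. Over all lists together 36 of 124 tested genes were higher and 6 lower, and 6 of those called had more than 10 reads in no AAV-NC liver. The lists overlap with markers of bile duct and dividing cells (*Epcam*, *Krt19*, *Spp1*, *Sox9*, *Mki67*, *Top2a*).

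**Figure D4:**
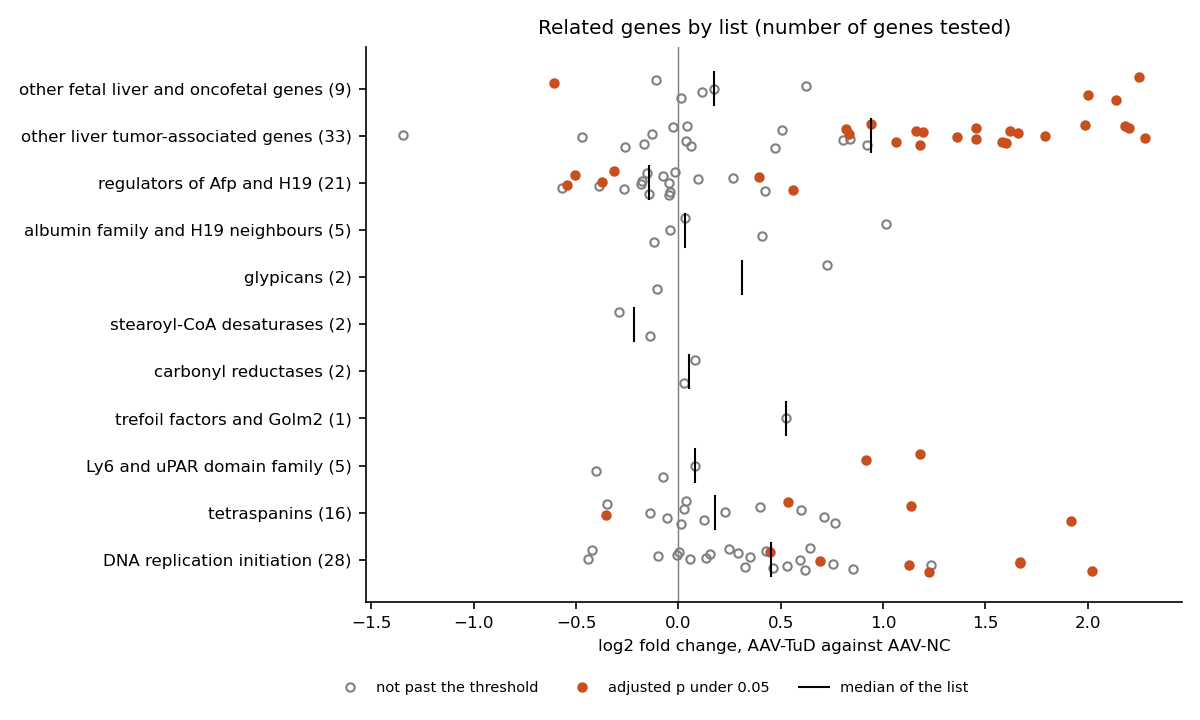
Log2 fold change (AAV-TuD against AAV-NC) of each tested gene related to the set, by list, with genes at an adjusted p under 0.05 filled and the list median as a black line. Of 33 tumor-associated genes, 19 are filled, all to the right of 0, and regulators of *Afp* and *H19* hold 2 filled points to the right and 4 to the left. Among all tested genes, 7.24% were called higher and 4.33% lower.

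The set was labelled as hepatocyte genes, and in RNA from whole liver the cell that made each transcript was not measured. Beside the marker counts that follow, 7.24% of all tested genes were called higher and 4.33% lower. Hepatocyte markers summed to 42782 to 48944 CPM in AAV-NC and 51216 to 57679 CPM in AAV-TuD, with 1 of 16 tested markers higher and 2 lower and a median log2 fold change of -0.11. *Alb* carried the difference in this sum, since the other 15 markers summed to 23550 to 26152 CPM in AAV-NC and 23085 to 26712 CPM in AAV-TuD, overlapping. Cholangiocyte markers summed to 66.0 to 106 CPM and 112 to 159 CPM, with 8 of 10 tested markers higher, 0 lower, and the defining markers *Krt19* and *Epcam* above 0 in every liver, while *Cftr*, *Sctr* and *Muc1* were not analysed here. Of the 8 higher cholangiocyte markers, 2 had more than 10 reads in no AAV-NC liver. Stellate cell markers were higher in 9 of 14 (251 to 336 CPM against 436 to 588 CPM) and Kupffer cell markers in 8 of 11 (127 to 189 CPM against 143 to 407 CPM), with 0 lower in both lists. Sinusoidal endothelial markers had 0 of 13 called by edgeR or DESeq2, 1 at an unadjusted p under 0.05, and sums of 256 to 299 CPM and 259 to 285 CPM. The groups did not overlap in the hepatocyte, cholangiocyte and stellate sums, and the part of any of these cell types in the levels of the 10 genes was not tested. Gut and pancreas markers were represented by 2 tested genes, of which *Cela1* was lower, and the mucous markers *Muc2*, *Agr2* and *Fcgbp*, which would accompany *Tff3* in gut epithelium, were not analysed here.

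**Figure D5:**
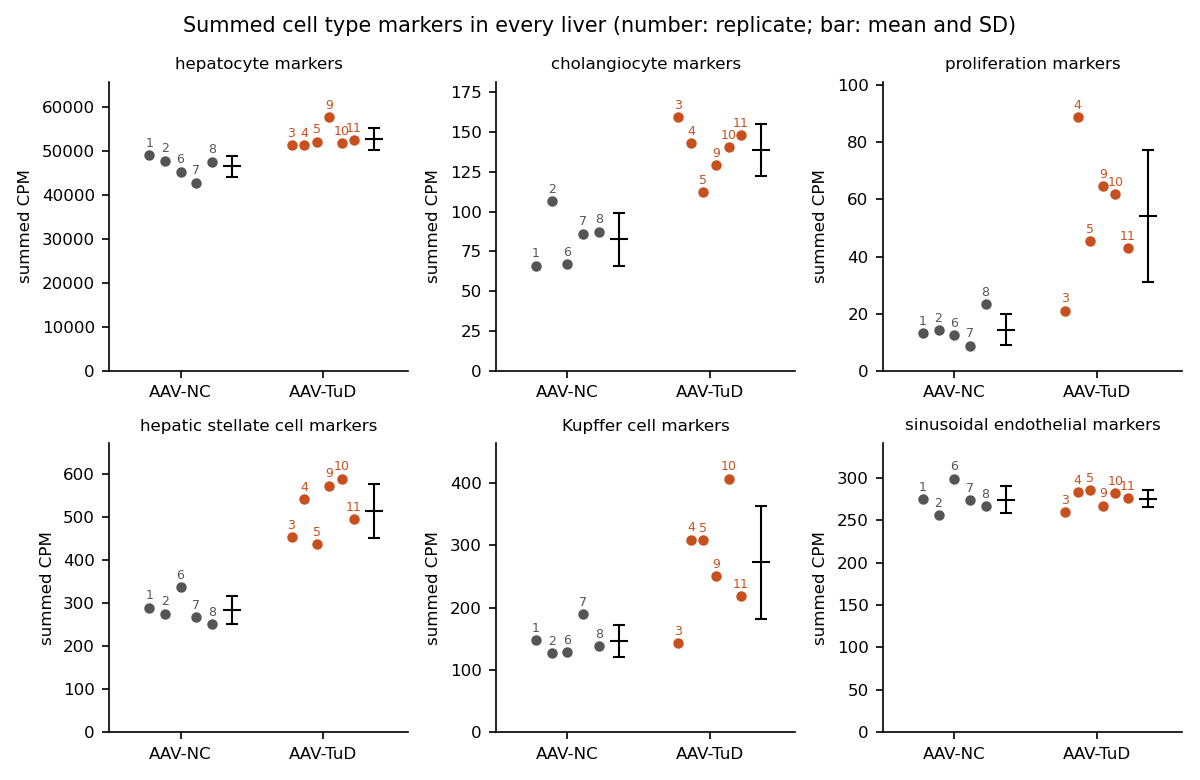
Summed CPM of 6 marker lists in every liver, AAV-NC in grey and AAV-TuD in orange, each list with its own vertical scale from 0, and the mean and SD as a bar. The hepatocyte, cholangiocyte and stellate sums do not overlap between groups, the proliferation sum is lowest within AAV-TuD in liver 3, and the sinusoidal endothelial sums overlap.

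Within the groups, the single highest liver differed between *Afp* and *H19*. *Afp* was highest in AAV-TuD 9 and AAV-NC 2, and *H19* in AAV-TuD 10 and AAV-NC 6, whereas AAV-TuD 4 was next to the highest of its group for both. By Pearson r of deviations from the group mean on the log2 CPM scale, over 11 livers and 8372 genes averaging 50 reads or more, the genes most like *Afp* were *Idi1* (0.91), *Hsd17b7* (0.91) and *Ugt1a5* (0.90). Those most like *H19* included *Hpcal1* (0.92) and *Ccdc80* (0.91). With so few reads of *Afp* and *H19* behind them, these values are a description of 11 libraries.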

How the data were processed

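Per the labels and the study's methods, the authors trimmed the reads, aligned them to GRCm38 with STAR 2.5.3a and deposited counts of reads per gene without normalization, and every gene of the table had at least 10 reads in at least 5 livers. Genes over 10 reads in 5 or more livers entered the edgeR 4.0.16 (R 4.3.3) quasi-likelihood fit, with TMM factors and Benjamini-Hochberg adjustment over all tested genes, and standard errors were derived from its F statistics. The study used DESeq2 1.38.3. Alternatives were DESeq2 1.42.0, its size factors, upper-quartile factors, library size alone, removal of *Mup* genes, no filter, the edgeR filter, limma-voom with quality weights (limma 3.58.1), a stricter threshold and each liver left out. The code was tested on simulated data. With a liver left out, the tested genes stayed those of all 11. P values set the difference between the groups against the spread between these livers within the groups. The 10 genes and the lists were chosen with earlier results of these data known. Named were the 10 genes, at most 4 called genes per list and direction by p value, their closest paralogs, *Zhx2* and *Zbtb20*, with further list genes named as counts require. Gene models were GENCODE M21, similar transcripts came from BLAST 2.17.0, and the strand setting of counting is not given in the sources used here. A gene that the rule for the genes most like *H19* selects is not reported here.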

Additional observations from a re-analysis of the deposited data

Results flagged for a closer look

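Of 140 sets of values examined (a gene or a summed marker list in 1 group), 11 had a highest or lowest liver far from the others, 7.86%, where chance flags about 5%. Each number in parentheses is the distance of that liver from its nearest neighbour as a share of the whole range of its group. For *Tff3*, AAV-NC 8 was the highest of AAV-NC (0.765). For *Alb*, AAV-NC 7 was the lowest of AAV-NC (0.724) and AAV-TuD 9 the highest of AAV-TuD (0.648). The replication gene *Mcm3* was lowest in AAV-TuD 3 (0.764), and *Mcm7* was highest in AAV-NC 8 (0.848). *Spp1* was lowest in AAV-TuD 5 (0.751), the regulator *Zhx3* highest in AAV-TuD 11 (0.651), *Kdr* lowest in AAV-NC 7 (0.750) and *Gpm6a* lowest in AAV-TuD 5 (0.709). The summed hepatocyte markers were highest in AAV-TuD 9 (0.810), and the summed mesothelial markers lowest in AAV-TuD 5 (0.695). Of the 7 measured members of the set, *Tff3* alone was among these.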

How the results depend on the processing

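The number of genes differing between AAV-TuD and AAV-NC livers was 1543, and 555 at an adjusted p under 0.01. The number of genes called higher in the lists of related genes was 36, and 23 at that threshold. Leaving out each liver gave 1071 to 1867 calls over all genes. DESeq2 called 1811 genes, 1516 of them shared with edgeR. Over 53 other named genes and 1007 refits, 963 kept their direction and side of the threshold, 20 lost the call, 24 gained it and 0 changed direction with a call. Of the 7 measured members, *Tff3* alone changed the sign of its fitted fold change, without AAV-NC 8, at 1.19, and it was -0.01 by limma-voom with quality weights. Scaling by library size without TMM moved the all-gene median to a log2 fold change of 0.23, and 95.1% of calls were higher, against 62.6% with TMM. No paired analysis was possible because the groups share no replicate number. Depth limits *Golm1*, *Tspan8*, *H19* and *Afp*, which rest on few reads per AAV-NC liver.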
